A study of Mus musculus with 8 samples.

Results

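Phosphatases, ubiquitin ligases and an adaptor that act on Jak2, or on the signal that Jak2 sends, are encoded by the 8 genes described here. They are the adaptor gene Sh2b3 (Lnk), the ubiquitin ligase genes Cbl and Cblb, the tyrosine phosphatase genes Ptpn1, Ptpn2, Ptpn6 and Ptpn11, and the transmembrane phosphatase gene Ptprc. They were taken by name, and all 8 were among the 18193 genes that could be measured. Each gene is represented by the probe set (a group of probes summed into 1 value) with the highest mean over all arrays. Its other probe sets serve as a check. The 8 genes had 21 probe sets in all.

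Expression was measured with Affymetrix mouse expression arrays in LSK cells, the stem and progenitor fraction of bone marrow, defined by low lineage markers, Sca1 on the surface and high cKit. The groups were 4 samples titled by mouse, heterozygous for mutant JAK2V617F, the activated kinase of myeloproliferative neoplasms, and 4 wild type samples, all of strain C57BL/6. Age, sex, the promoter or Cre line behind the mutant allele and any pooling of mice are not given in the sources used here. The question was whether transcripts of the proteins that hold Jak2 in check differ between mutant and wild type LSK cells.

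Jak2 is a tyrosine kinase bound to cytokine receptors, and it is switched on when a ligand brings receptors together. The signal is ended at several steps. Adaptors of the SH2B family bind phosphorylated Jak2 and receptors, Cbl proteins attach ubiquitin to activated receptors and kinases, and phosphatases remove phosphate from Jak2, the receptors and the Stat factors. In blood stem cells Sh2b3 limits signalling by the thrombopoietin receptor and by Kit, and mice without it have an enlarged stem cell pool.

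The arrays were close in scale, with median log2 intensities from 7.06 to 7.15 and pairwise correlations across probe sets from 0.991 to 0.995. The medians leaned lower in mutant arrays (7.06 to 7.13) than in wild type arrays (7.12 to 7.15), with overlap. The stem and progenitor markers Kit (12.67 in mutant and 12.65 in wild type arrays, means of log2 intensity) and Cd34 (13.93 in mutant and 14.04 in wild type arrays) were bright. Of 9 such markers measured, 3 differed above 0 (mutant minus wild type) and 6 below, with a median of -0.09 and 0 called. Cd34 and Mecom (-0.34 ± 0.09, SE) lay wholly lower in mutant arrays, as 3.33% of all genes did. Slamf1 differed by 0.72 ± 0.26 (SE; limma adjusted p = 0.225). Of the 4 measured B cell markers, Ms4a1 stood at 4.09 in mutant and 4.26 in wild type arrays, within the range that Y-linked genes gave in arrays with female expression (3.06 to 5.37). The other B cell markers lay above that range, with Pax5 at 6.21 in mutant and 6.14 in wild type arrays, Cd79a at 6.49 in mutant and 6.51 in wild type arrays, and Cd79b at 11.76 in both. Differences of mutant minus wild type lay above 0 for 5 of 5 measured erythroid, 7 of 7 macrophage and dendritic cell, 6 of 6 granulocyte, 5 of 5 megakaryocyte, 5 of 6 T and NK cell and 2 of 4 B cell markers, beside 62.6% of all genes, and none of these markers was called. The log2 of the summed erythroid marker intensity ran between 11.90 and 12.91 in mutant arrays, against 10.58 to 11.61 in wild type arrays. For macrophage and dendritic cell markers this sum ran between 14.57 and 15.02 in mutant arrays and between 13.69 and 14.47 in wild type arrays. For granulocyte markers it ran between 15.17 and 16.07 in mutant arrays and between 14.62 and 15.65 in wild type arrays, so these ranges overlapped while the other 2 did not. The sums also overlapped for megakaryocyte markers (12.23 to 12.94 in mutant and 12.11 to 12.58 in wild type arrays), T and NK cell markers (13.42 to 13.60 in mutant and 13.27 to 13.60 in wild type arrays) and B cell markers (11.73 to 11.90 in mutant and 11.80 to 11.88 in wild type arrays). The erythroid markers Alas2 and Epb42 had means below 7.11, the median of all probe set means. The part of these cells in the results below was not tested. In sorted cells read in bulk, fewer cells of a type and less RNA per cell cannot be told apart. There were 3 mutant and 2 wild type arrays with male expression, and 1 mutant and 2 wild type arrays with female expression.

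None of the 8 genes passed limma's test over all genes (adjusted p of 0.05), against a background of 0.165% of genes called (0.104% higher and 0.0605% lower in mutant arrays). An unadjusted p under 0.05 was found for 1 of the 8, Ptpn2, where 17.2% of all genes had one (11.9% higher and 5.23% lower). The mutant arrays lay wholly on 1 side of the wild type arrays for 1 of the 8, again Ptpn2, which 10.1% of all genes did (6.82% higher and 3.33% lower). All 8 were read well above the median of probe set means (7.11). The median of the 8 differences was -0.03 on the log2 scale, beside 0.05 over all genes. The median of their sizes without sign was 0.04, beside 0.12 over all genes. Dim genes are part of that background, and the 8 were not compared with genes of like brightness. The 95% intervals given below are limma's, for each gene on its own and not adjusted.

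Sh2b3, the adaptor, had log2 intensities of 11.70, 11.94, 11.97 and 11.86 in mutant arrays, against 11.92, 11.82, 11.88 and 11.99 in wild type arrays. Mutant array 1 was the lowest of the 8, and the other mutant arrays lay among the wild type arrays. The difference was -0.03 ± 0.08 (SE; limma adjusted p = 0.847). The ratio of mutant to wild type was 0.977, with a 95% interval from 0.863 to 1.11, so the data leave room for a level up to 13.7% lower or 10.7% higher in mutant cells. The further Sh2b3 probe set differed by -0.05 ± 0.13 (SE) and stood at 8.26 in mutant and 8.32 in wild type arrays. Its relatives Sh2b1, which can raise the activity of Jak2, and Sh2b2 were measured too. Sh2b1 differed by 0.02, and Sh2b2 by 0.43 ± 0.15 (SE; limma adjusted p = 0.225), with means of 9.75 ± 0.18 in mutant and 9.33 ± 0.29 in wild type arrays (SD, n = 4 each).

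**Figure D1:**
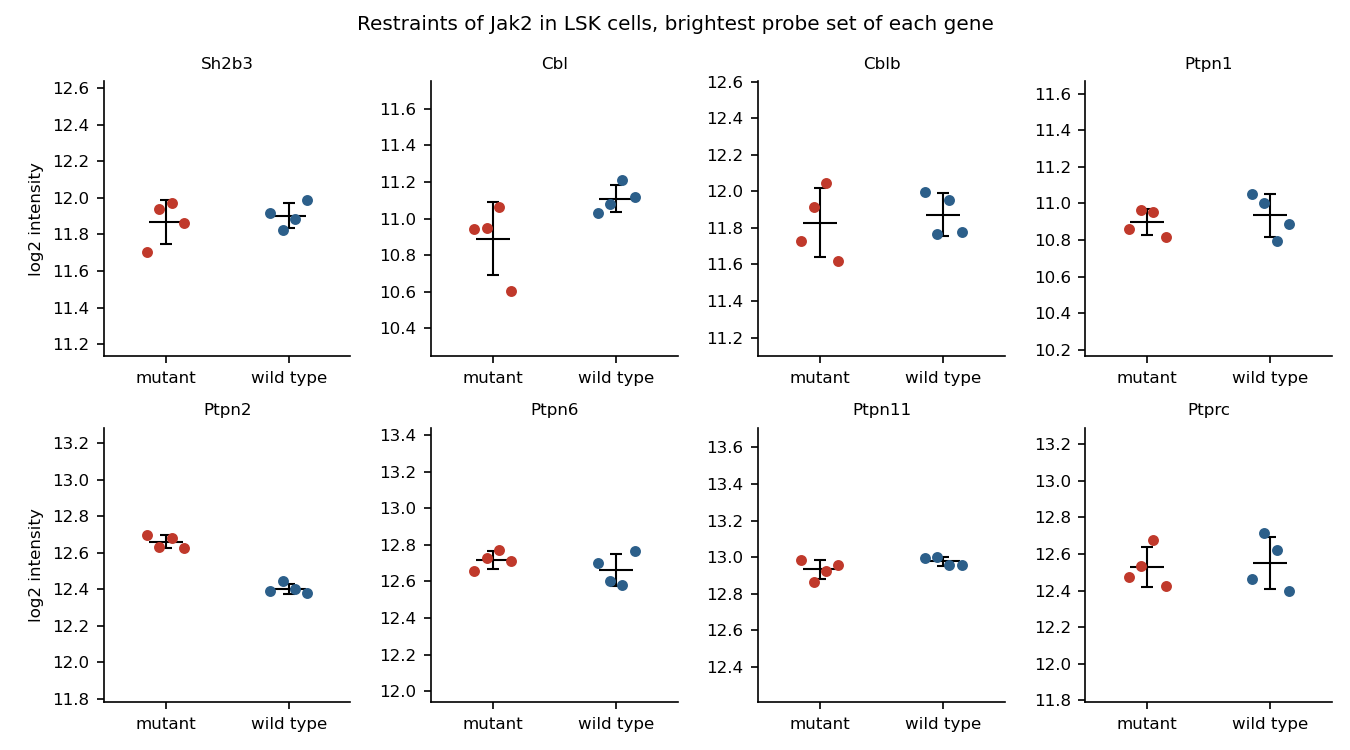
Log2 intensity (vertical axes, each spanning the same width) of the brightest probe set of the 8 genes in 4 mutant arrays (red, left) and 4 wild type arrays (blue, right). Points are arrays and bars are the mean ± SD. The groups are apart for Ptpn2 and overlap for the other 7 genes.

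Cbl, the ubiquitin ligase that acts on activated receptors and kinases, read 10.94, 10.95, 11.07 and 10.61 in mutant arrays and 11.03, 11.08, 11.21 and 11.12 in wild type arrays. Mutant array 4 stood apart at the low end, and mutant array 3 lay within the wild type range. The difference was -0.22 ± 0.10 (SE; limma adjusted p = 0.315), a ratio of 0.859 with a 95% interval from 0.731 to 1.01. Without mutant array 4 the difference was -0.12 (limma adjusted p = 0.545), and among arrays with male expression it was -0.33 (limma adjusted p = 0.283).

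The other probe sets of Cbl did not repeat this value. Probe set 1455886_at read 10.67, 10.70, 10.72 and 10.45 in mutant arrays, against 11.06, 11.27, 11.27 and 11.04 in wild type arrays. All mutant arrays lay below all wild type arrays, by 0.53 ± 0.095 (SE) on the log2 scale between means, a ratio of 0.694 with a 95% interval from 0.598 to 0.805. In the fit over all 45037 probe sets, of which 0.244% were called, its limma adjusted p was 0.0628 and so missed the threshold. Under a trended and robust prior, an alternative added after seeing the data, limma gave it an adjusted p of 0.0314, which passed. The mean of 1455886_at was above that of the brightest probe set in wild type arrays (11.16 against 11.11) and below it in mutant arrays (10.63 against 10.89). The choice by the mean over all 8 arrays thus left it out, and the counts over the 8 genes rest on that choice. Probe set 1450457_at was dim and lay the other way, at 7.06, 7.21, 7.34 and 7.05 in mutant arrays and 7.06, 6.86, 7.03 and 6.94 in wild type arrays (a difference of 0.19 ± 0.09, SE; limma adjusted p = 0.324). The 3 Cbl probe sets did not move alike, and in each of their 3 pairs the gap between probe sets was apart between genotypes. The change at 1455886_at lay below that at the brightest probe set by 0.31 and below that at 1450457_at by 0.72, and the changes at the brightest probe set and 1450457_at differed by -0.41. Each of these had an exact two-sided permutation p of 0.0286, the smallest that 4 arrays against 4 can give, and 0.136 after Benjamini-Hochberg adjustment over the 19 pairs of probe sets compared for the 8 genes. Which exons these probe sets read is not given in the sources used here.

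Cblb encodes a close relative of Cbl that also limits receptor signalling. Its brightest probe set read 11.73, 11.91, 12.04 and 11.62 in mutant arrays, against 12.00, 11.76, 11.95 and 11.78 in wild type arrays. Both the highest and the lowest of the 8 values were mutant. The difference was -0.05 ± 0.11 (SE; limma adjusted p = 0.845), with a 95% interval of the ratio from 0.820 to 1.15. Probe set 1458469_at gave 9.93, 10.22, 9.89 and 10.04 in mutant arrays and 10.52, 10.64, 10.35 and 10.26 in wild type arrays. There the groups did not overlap, and the difference was -0.42 ± 0.11 (SE; limma adjusted p = 0.128 over all probe sets), a ratio of 0.746. Mutant array 2, the highest of its group, lay only just below wild type array 4, and among arrays with male expression the difference was -0.24. The third Cblb probe set differed by 0.05 ± 0.18 (SE), with wide overlap. The changes at 1458469_at and at the brightest probe set differed by 0.38, with 1458469_at the lower in mutant arrays (exact permutation p = 0.0571, adjusted 0.217 over the 19 pairs).

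Of the 13 probe sets that were not the brightest of their gene, 2 lay wholly lower in mutant arrays, 1 of Cbl and 1 of Cblb, beside 4.66% of all probe sets. Their promoters are shown for that reason, from 250 bases before to 50 bases after the start of the gene (RefSeq, GRCm38.p6, 5′ to 3′ on the gene's strand). Capitals mark matches to CCGCCC, the core of the GC box bound by Sp1 and Klf factors, on either strand. The Cbl promoter lies at chr9:44233997-44234296 on the minus strand and the Cblb promoter at chr16:52031299-52031598 on the plus strand. The promoter of Ptprc is set beside them because its composition is unlike theirs, at chr1:138175077-138175376 on the minus strand, where capitals mark AGATAA, a letter string bound by Gata factors. This is 1 of 2 starts of Ptprc.
Cbl: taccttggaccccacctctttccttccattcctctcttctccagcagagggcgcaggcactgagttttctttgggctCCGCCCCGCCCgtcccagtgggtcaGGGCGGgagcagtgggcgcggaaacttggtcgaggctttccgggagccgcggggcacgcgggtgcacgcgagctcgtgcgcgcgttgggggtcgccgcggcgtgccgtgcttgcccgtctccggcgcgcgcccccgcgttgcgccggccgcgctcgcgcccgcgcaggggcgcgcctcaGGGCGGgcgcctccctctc
Cblb: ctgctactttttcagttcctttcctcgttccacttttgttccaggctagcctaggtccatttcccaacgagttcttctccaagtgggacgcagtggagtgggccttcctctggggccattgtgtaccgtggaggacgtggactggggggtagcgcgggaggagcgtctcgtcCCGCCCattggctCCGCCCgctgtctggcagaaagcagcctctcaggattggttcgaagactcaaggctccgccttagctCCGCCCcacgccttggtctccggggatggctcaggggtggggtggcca
Ptprc: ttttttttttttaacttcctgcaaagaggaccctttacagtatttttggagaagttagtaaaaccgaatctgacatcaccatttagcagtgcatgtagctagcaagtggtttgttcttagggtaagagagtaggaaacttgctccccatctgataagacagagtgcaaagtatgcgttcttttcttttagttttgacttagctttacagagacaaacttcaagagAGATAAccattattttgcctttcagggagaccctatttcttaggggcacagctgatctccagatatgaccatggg
The Cbl promoter held 4 matches to CCGCCC and the Cblb promoter 3, overlapping matches counted singly. The motif was also in the promoters of Ptpn6 (5 matches), Ptpn11 (4) and Ptpn1 (2), so in 5 of the 8 promoters matched for these genes, and 35.7% of 32851 promoters of the same length held at least 1. The G and C content of the Cbl and Cblb promoters was 74% and 61.3%, beside a median of 52.7% over all promoters. It was likewise high for Ptpn1 (74%), Ptpn11 (68.7%), Ptpn6 (61.7%) and Sh2b3 (61.7%), so it did not set Cbl and Cblb apart. The Ptprc promoter had 39.3% and no GC box match, and it held 1 match to AGATAA, which 11.2% of promoters hold. The promoter of the other start, at chr1:138175256-138175555, had 33.7% G and C and 0 matches to AGATAA or the GC box. A promoter sequence was matched by symbol for 7 of the 8 genes, 8 promoters in all since Ptprc had 2 starts. Ptpn2 had none matched, so the promoter counts do not cover it. Of these 8, 0 held TTCNNNGAA, the letters of the Stat site, on either strand, beside 8.3% of all promoters. CACGTG was found in that of Sh2b3 (7.15% of all promoters), CCGGAAG, an Ets site, in those of Ptpn1 and Ptpn11 (8.86%), and TGTGGT, a Runx site, in none (16.8%). A match is a run of letters and not a measured site. CCGCCC and the choice of Ptprc for display were added after the values were seen.

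**Figure D2:**
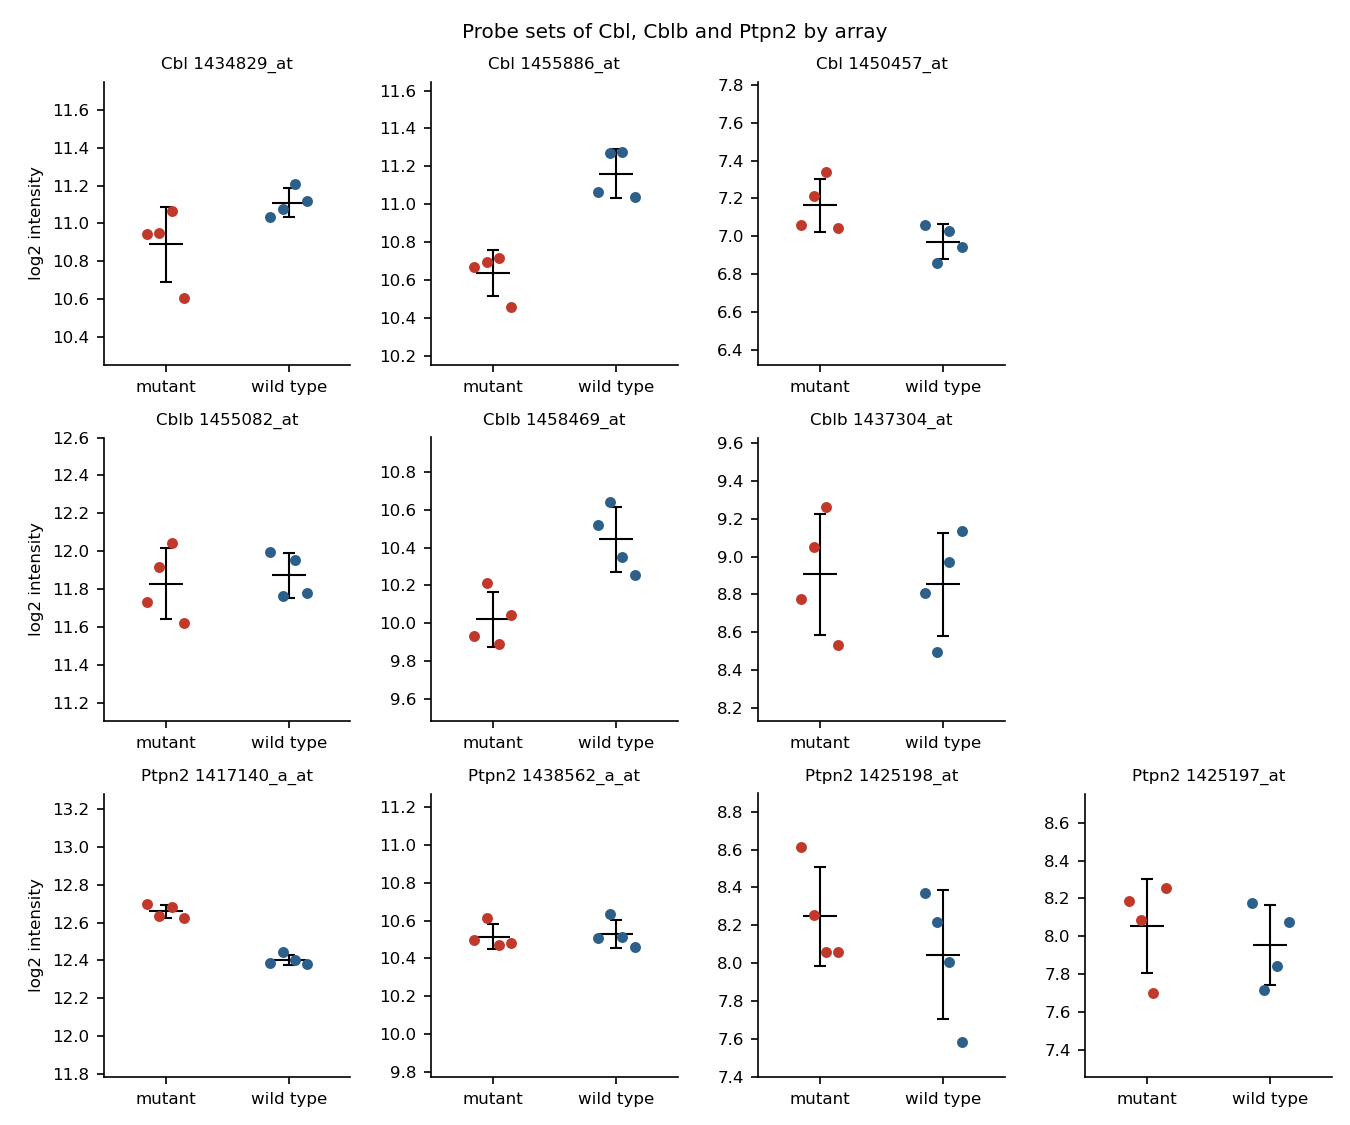
Log2 intensity (vertical axes, each spanning the same width) of every probe set of Cbl, Cblb and Ptpn2 in 4 mutant arrays (red, left) and 4 wild type arrays (blue, right), with the mean ± SD as bars. The groups are apart for Cbl 1455886_at, Cblb 1458469_at and Ptpn2 1417140_a_at, and the other probe sets of the same genes overlap.

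Ptpn2 encodes a small phosphatase, also called TC-PTP, that acts in the nucleus and at the endoplasmic reticulum on Jak and Stat proteins. It had the smallest p of the 8. Its brightest probe set read 12.70, 12.63, 12.68 and 12.63 in mutant arrays, against 12.39, 12.44, 12.40 and 12.38 in wild type arrays. Every mutant array lay above every wild type array, and both groups were tight (12.66 ± 0.04 in mutant and 12.40 ± 0.03 in wild type arrays; SD, n = 4 each). The difference was 0.26 ± 0.06 (SE), a ratio of 1.19 with a 95% interval from 1.09 to 1.31, and its limma adjusted p of 0.115 missed the threshold. Groups apart with the mutant arrays higher were found for 6.82% of all genes. Leaving out each array in turn kept the difference between 0.24 and 0.27.

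The other Ptpn2 probe sets gave a mixed picture. Probe set 1438562_a_at read 10.50, 10.61, 10.47 and 10.48 in mutant arrays and 10.51, 10.63, 10.51 and 10.46 in wild type arrays. These groups overlapped throughout, with a difference of -0.01 ± 0.08 (SE). The unequal change of these 2 probe sets amounted to 0.27 (exact permutation p = 0.0286, adjusted 0.136 over the 19 pairs), with no overlap between genotypes. The 2 remaining probe sets differed by 0.20 ± 0.18 and 0.10 ± 0.15 (SE). With the probe sets averaged, Ptpn2 differed by 0.14 (limma adjusted p = 0.402). The 5 genes most like Ptpn2 over the 8 arrays, by the root mean square gap between mean-centred log2 values, were Brd8 (0.0459), Pex3 (0.0488), Ttll12 (0.0492), Oard1 (0.0545) and Ankra2 (0.0548). They were sought among 10967 genes with means above 7.11, the median of all probe set means.

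Ptpn1, or PTP1B, sits on the endoplasmic reticulum and removes phosphate from Jak2. It read 10.86, 10.97, 10.95 and 10.82 in mutant arrays, against 11.05, 11.00, 10.80 and 10.89 in wild type arrays. The mutant arrays lay inside the wild type range. The difference was -0.04 ± 0.08 (SE; limma adjusted p = 0.828), with a ratio between 0.861 and 1.10 in the 95% interval. The other Ptpn1 probe set differed by -0.03 ± 0.16 (SE), with wild type array 3 at 8.84 and the other wild type arrays between 9.54 and 9.56.

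Ptpn6, or SHP-1, is the phosphatase of blood cells that is drawn to inhibitory and cytokine receptors through its SH2 domains. It read 12.66, 12.73, 12.77 and 12.71 in mutant arrays and 12.70, 12.60, 12.58 and 12.76 in wild type arrays. The groups overlapped, and the difference was 0.06 ± 0.07 (SE; limma adjusted p = 0.691), with a 95% interval of the ratio from 0.932 to 1.16. The other Ptpn6 probe set gave 0.08 ± 0.07 (SE). Ptpn11, or SHP-2, is the related phosphatase that mostly carries signals onward to Ras. It read 12.99, 12.87, 12.93 and 12.96 in mutant arrays, against 12.99, 13.00, 12.96 and 12.96 in wild type arrays. Mutant arrays 2 and 3 lay just below the wild type arrays and the other 2 among them. The difference was -0.04 ± 0.06 (SE; limma adjusted p = 0.722), with a 95% interval of the ratio from 0.882 to 1.07. The other 2 Ptpn11 probe sets differed by -0.10 ± 0.13 and -0.06 ± 0.11 (SE).

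Ptprc encodes CD45, the abundant surface phosphatase of all nucleated blood cells, which acts on Jak proteins and on Src family kinases. It read 12.47, 12.53, 12.68 and 12.42 in mutant arrays and 12.47, 12.72, 12.62 and 12.40 in wild type arrays. Both groups spread over nearly the same range. The difference was -0.02 ± 0.09 (SE; limma adjusted p = 0.911), with a ratio from 0.851 to 1.14 in the 95% interval. The other Ptprc probe set differed by -0.19 ± 0.15 (SE), with mutant array 3 lowest at 8.35. Transcripts of CD45 differ in the exons they keep, and the probe sets were not matched to them. Ptprcap, the partner protein gene of CD45, differed by -0.13 ± 0.08 (SE; limma adjusted p = 0.430).

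**Figure D3:**
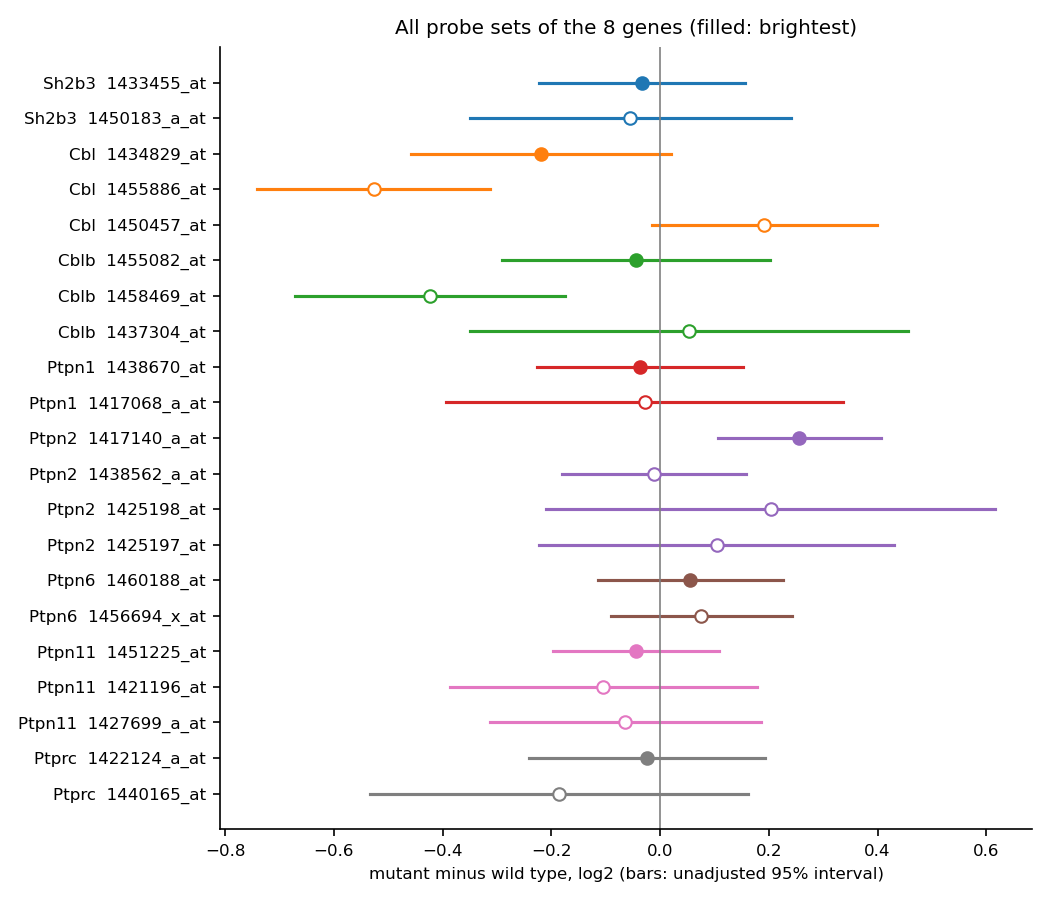
Difference of mutant minus wild type in log2 intensity (horizontal axis) for the 21 probe sets of the 8 genes, with the unadjusted 95% interval from limma over all probe sets as bars. Filled points are the brightest probe set of each gene and open points the others. The intervals of 3 probe sets, those of Cbl 1455886_at, Cblb 1458469_at and Ptpn2 1417140_a_at, exclude 0.

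Over the 21 probe sets, 0 were called, 3 had an unadjusted p under 0.05 (17.2% of all probe sets had one) and 3 did not overlap between genotypes, 1 higher and 2 lower (10.2% of all, 5.52% higher and 4.66% lower). Among the 13 that were not the brightest of their gene, 5 lay above 0 and 8 below. All probe sets of a gene shared 1 sign for 5 genes, namely Sh2b3, Ptpn1, Ptpn6, Ptpn11 and Ptprc, and signs were mixed for Cbl, Cblb and Ptpn2. Between probe sets of 1 gene, 4 of 19 pairs gave unequal changes with no overlap between genotypes, and 0 of 19 passed after adjustment. The Cbl pairs among them share probe sets and are not independent. The share over probe set pairs of all genes was not computed, so whether this count is unusual cannot be told.

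The other genes of these pathways were described in 8 lists with 114 measured genes, of which 0 were called by limma over all genes and 20 had an unadjusted p under 0.05, where 17.2% of all genes had one. Among 12 other non-receptor phosphatases 5 lay above 0 and 7 below, with a median of -0.02, and 1, Ptpn4, had an unadjusted p under 0.05 (-0.30 ± 0.11, SE; limma adjusted p = 0.224). Ptpn12, which acts on adhesion and cytoskeletal proteins, differed by -0.03, Ptpn18 by 0.03 and Ptpn22, a phosphatase of lymphocyte signalling, by 0.10. Among 18 other receptor phosphatases 10 lay above 0, with a median of 0.05. In this list 7 of the 18 were dim (mean below 7.11), and with dim genes left out the median was -0.11. Ptpre differed by -0.12, Ptprj by -0.06 and Ptprs, which is expressed on stem cells, by -0.15 (limma adjusted p = 0.332). The widest difference in that list was that of Ptpro, at 7.71 ± 0.60 in mutant and 6.70 ± 0.31 in wild type arrays (SD, n = 4 each; 1.01 ± 0.28, SE; limma adjusted p = 0.162), with the groups apart.

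The 16 adaptors had a median of -0.05, with 5 above 0 and 11 below. Grb2, the link from receptors to Ras, differed by -0.02, the scaffold gene Gab2 by -0.10 and Dok2, which restrains Ras signalling, by -0.23 ± 0.10 (SE; limma adjusted p = 0.282). The 17 partners and ubiquitin route genes of Cbl had a median of 0.0013 and 0 unadjusted p under 0.05. Sh3kbp1 and Cd2ap, which carry Cbl to endocytosis, differed by 0.04 and 0.05, Ubash3b, a phosphatase that binds Cbl, by -0.08 and the ligase gene Itch by -0.0041. The 15 receptors, kinases and Stat factors on which the 8 proteins act had a median of -0.0042, with 7 above 0 and 8 below. Stat5a differed by -0.01, Stat5b by -0.02 and Kit by 0.02. Differences in this list ran from -0.20 (Jak2) to 0.65 (Csf1r). Of the 15, 1, Epor, had an unadjusted p under 0.05 (0.55 ± 0.21, SE, limma adjusted p = 0.246), with overlapping groups. Jak2 stood at 12.43 ± 0.16 in mutant and 12.63 ± 0.05 in wild type arrays (SD, n = 4 each; limma adjusted p = 0.294). Among the 12 Socs and Pias genes, which restrain Jak and Stat proteins by other routes, the median was -0.12, with 1 unadjusted p under 0.05 above 0 and 3 below, where 11.9% of all genes had one above 0 and 5.23% below. With wild type array 3 left out that median was -0.017, and leaving out wild type array 4 gave -0.036. It was -0.031 with probe sets averaged and 0.042 over all probe sets. The gene above 0 with such a p was Socs2, a Stat target that feeds back on the receptor. Its groups were apart, at 11.44 ± 0.10 in mutant and 10.71 ± 0.30 in wild type arrays (SD, n = 4 each), and the difference of 0.73 ± 0.14 (SE) missed the threshold (adjusted p of 0.0819 by limma). Socs1, dim at 6.09 in mutant and 5.91 in wild type arrays, differed by 0.17, Socs3 by 0.31 ± 0.25 (SE) and Pias1 by -0.10.

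Inhibitory receptors that recruit Ptpn6 and Ptpn11 had the highest list median, 0.25, with 0 called. Of 17 measured members 14 lay above 0, beside 62.6% of all genes. Among the 14, 7 had an unadjusted p under 0.05, where 11.9% of all genes had one in that direction. The list median was 0.16 over all probe sets and 0.19 without probe sets named _s_at, _x_at or _a_at. Of the 17, 4 were dim, and with dim genes left out the median stayed at 0.25. Pirb stood at 8.89 ± 0.19 in mutant and 8.25 ± 0.20 in wild type arrays (SD, n = 4 each), with the groups apart (0.64 ± 0.12, SE; limma adjusted p = 0.0849). Pirb belongs to a family of near-identical genes, so its reading is uncertain. Pecam1 differed by 0.36 ± 0.15 (SE; limma adjusted p = 0.263), Cd300a by 0.15 and Sirpa by 0.11. Several of these receptors are carried by macrophages and granulocytes, others by lymphocytes (Cd22, Cd72 and Cd5), and Pecam1 and Treml1 are also found on platelets. Markers of macrophages, granulocytes and megakaryocytes lay above 0 too, as given above, with Cd68 at 11.27 ± 0.15 in mutant and 10.83 ± 0.19 in wild type arrays (SD, n = 4 each). Their part in the readings of the receptors was not tested. Among 7 measured Src family kinases and partners, on which Ptprc acts, 4 lay above 0, with a median of 0.02. Csk, which switches these kinases off, differed by 0.08 and Pag1, the membrane anchor of Csk, by -0.18 ± 0.07 (SE; limma adjusted p = 0.262).

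**Figure D4:**
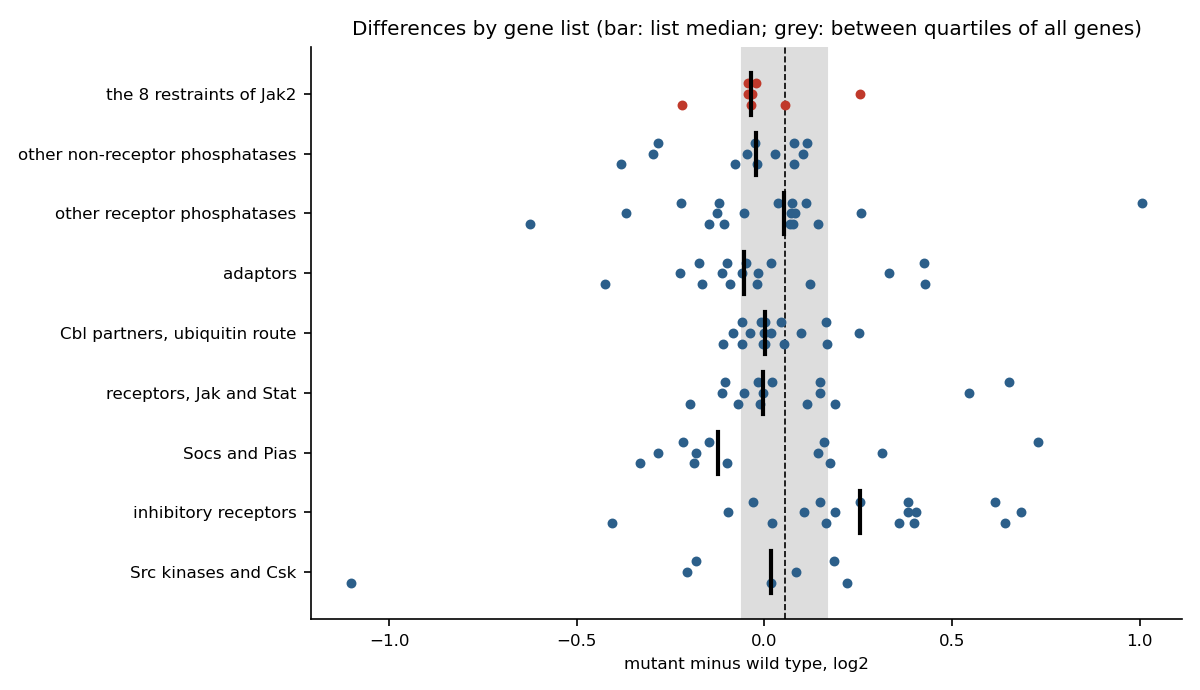
Difference of mutant minus wild type in log2 intensity (horizontal axis) for the 8 genes described here (red, top, labelled restraints of Jak2). The measured members of 8 further lists are in blue. Points are genes, spread vertically for legibility, thick bars are list medians, the dashed line is the median of all genes (0.05) and the grey band runs between the quartiles of all genes. The inhibitory receptors have the highest median, 0.25, and the Socs and Pias genes have one of -0.12.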

How the data were processed

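LSK cells were sorted and their RNA was amplified linearly, per the labels' protocols, and each of 8 samples, titled by a mouse replicate number, was read on 1 array. The authors deposited log2 intensities. These came from RMA in affy under R 2.11.0 per the submitters' processing notes, a method that corrects background, equalises the distribution of arrays (quantile normalisation) and sums probes into probe sets. That the scale is log2 follows from the range of values. The chip definition and genome build are not given in the sources used here. Quantile normalisation would hide a shift of most transcripts in 1 direction. Scan dates and slides were not examined, so no batch was tested.

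Of 45037 probe sets without controls, 34945 had 1 gene symbol in the platform annotation, 932 several and 9160 none. Symbols were checked by Entrez identifier against RefSeq GRCm38.p6 (34741 matched, 0 changed). This gave 18193 genes, each read by its probe set with the highest mean. Mutant minus wild type was tested over all genes with limma 3.58.1 in R 4.3.3 (lmFit, eBayes), two-sided and without covariates, with Benjamini-Hochberg adjustment at 0.05. Single values used exact permutation tests. Whether mice were littermates is not given in the sources used here. The number of arrays limits the precision. Scripts were tested on simulated data.

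Members and lists were chosen with earlier results of these data known. Named genes were the 8 members, list genes set by name, and the 5 genes most like the member with the smallest p. Ptpn4, Ptpro, Pag1, Socs2, Epor, Csf1r and the marker genes named were chosen after their values were seen. List genes without a singly named probe set were not analysed here. Replicate numbers occur in both genotypes, but deviations of same-numbered arrays correlated between -0.168 and 0.119, so the numbers were not taken as pairs.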

Additional observations from a re-analysis of the deposited data

Results flagged for a closer look

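Within a group of 4 arrays, 1 array stood far from the rest in 2 of 98 sets of values examined, where chance gives about 1 in 20. For the second Ptpn1 probe set, 1417068_a_at, wild type array 3 read 8.84 while the other wild type arrays read 9.54 to 9.56. For Ptpn22, a phosphatase of lymphocyte signalling, mutant array 3 read 11.93 while the other mutant arrays read 11.63 to 11.66. Mutant array 3 was the mutant array with female expression.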

How the results depend on the processing

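None of the 8 genes was called in any of the 17 alternatives over genes or in the fit of all probe sets. Differences near 0 turned sign without a call. With each array centred on its median, Sh2b3 was 0.011, Ptpn1 0.0074, Ptpn11 0.0001 and Ptprc 0.0205. With sex as a covariate Ptprc was 0.0092, and among arrays with male expression Ptpn1 was 0.039. With all probe sets tested, Cbl was 0.19 at 1450457_at, Cblb 0.0528 at 1437304_at and Ptpn2 -0.0111 at 1438562_a_at. Leaving out each array in turn gave -0.0676 to 0.0221 for Sh2b3, -0.12 to 0.0235 for Cblb, -0.0829 to 0.0026 for Ptpn1 and -0.0738 to 0.0317 for Ptprc. The sign turned without mutant array 1 for Sh2b3, without mutant array 4 for Cblb, without wild type array 1 for Ptpn1 and without wild type array 2 or mutant array 4 for Ptprc. Over these 17 alternatives the limma adjusted p of Ptpn2 lay between 0.0612 (trended robust prior) and 0.574 (probe sets named _s_at, _x_at or _a_at left out). In the latter, Ptpn2 was read by another, dimmer probe set, 1425198_at, with a difference of 0.20 ± 0.18 (SE). Added after seeing the data, 15 alternatives for Cbl 1455886_at ran from -0.57 to -0.47, and 1, a trended robust prior, called it (limma adjusted p = 0.0314, highest 0.168). The same 15 gave -0.49 to -0.24 for Cblb 1458469_at and 0 calls, the smallest difference being that of male arrays alone.

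Of all genes, 30 were called, 19 higher and 11 lower. The count was 47 with median centring (37 higher), 49 with probe sets averaged (38 higher), 75 with a trended robust prior (47 higher, 28 lower), 60 with sex as a covariate (39 higher, 21 lower), 110 over all probe sets (44 higher, 66 lower) and 199 at an adjusted p of 0.1 (135 higher, 64 lower), and 7 were lower with dim genes left out. Leaving out each array gave 13 to 40 calls, 8 to 28 higher and 3 to 12 lower. With the replicate number as a block 8 were called (4 higher, 4 lower) and no member call changed, and 2 of 8 arrays correlated best with their own number. Pathway list medians moved in all 144 recomputations by less than the SD between arrays of the list's median log2 intensity. That SD is not the spread of a list's median difference, so the comparison cannot show that the medians were stable. Several turned sign. The Socs and Pias median went from -0.1236 to 0.0422 over all probe sets. That of other receptor phosphatases went from 0.0517 to -0.1087 with dim genes left out. The 1 list call was that of Socs2 under the trended robust prior (adjusted p of limma 0.0393). The cause of these shifts was not tested.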
